A study of Mus musculus with 40 samples.

Results

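The 10 genes described here were Apobec1, Npc1, Lipa, Rb1, Atp6v0e2, Cfap97, Dclre1b, Eps15, Mrc1 and Rhobtb3. They were chosen by their measured differences from the empty vector: the signal with the mutant PAX5-P80R lay on one side of the vector MIR and that with wild-type PAX5 on the other. They are 10 of 17097 genes measured, and 19 of 45141 probe sets carry exactly one of their symbols. Of all genes, 14 met the condition that PAX5-P80R over MIR and PAX5-WT over MIR both pass at an adjusted p under 0.05 with opposite signs (0.0819%), and the 10 are among these 14. Both comparisons therefore chose the genes, and their values are given below as a description. Just inside the threshold lay Mrc1, with 0.0442 as the larger of its 2 adjusted p-values, at a difference of -0.20 for PAX5-P80R over MIR and 0.22 for PAX5-WT over MIR. Just outside lay Nek6, with 0.0535, at 0.23 for PAX5-P80R over MIR and -0.17 for PAX5-WT over MIR. All levels are RMA signals on the log2 scale, and a difference of 1 would be a doubling.

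The study measured total RNA from J558LuM, a cultured plasmacytoma of the mouse, on Affymetrix expression arrays. Every culture received a construct by transduction: PAX5-P80R (6 arrays), PAX5-G183V (7), PAX5-G183S (7), PAX5-WT (7), PAX5-Δ2-6 (6) or the empty vector MIR (7). The P80R change lies in the paired domain, with which PAX5 binds DNA, both G183 changes lie in the octapeptide, a motif that recruits co-repressors, and Δ2-6 is named without further detail. Each array holds a separate transduction of the same cell line, so a p-value reflects how transductions vary, not how animals or clones do. No source used here names the promoter that drives the constructs. MIR arrays stand for cells with the vector alone, and no array of untransduced cells was analysed here.

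The layout of the arrays bears on every comparison. Both isolation batches of RNA held all 6 groups. All PAX5-P80R and PAX5-Δ2-6 arrays lay on plate 2, while the other groups lay on both plates. In isolation batch 1, PAX5-P80R, PAX5-G183V and PAX5-Δ2-6 came from transductions numbered 1 to 9, and PAX5-G183S, PAX5-WT and MIR from numbers 34 to 44, so that there transduction series and construct cannot be told apart for PAX5-P80R against PAX5-WT or MIR. In isolation batch 2 all groups came from numbers 45 to 66. Within these, PAX5-P80R had numbers from 48 to 52, PAX5-Δ2-6 from 53 to 57, MIR from 58 to 60 and PAX5-WT from 61 to 63. The labels give the numbers only, and a series here means a range of them. Array medians lay between 4.21 and 4.27, and no pair of arrays was identical. The arrays' Pax5 probe set lay between 4.53 and 5.41 in PAX5-P80R, between 4.36 and 5.14 in PAX5-WT and between 4.19 and 4.63 in MIR, and whether its probes read the transduced constructs was not tested.

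PAX5 is a transcription factor of the B lineage. It is switched on in early B cells, activates B cell genes, represses genes of other lineages and is lost as B cells become plasma cells, so a plasmacytoma offers a background without its own PAX5. The genes fall into several roles. Npc1, Lipa and Atp6v0e2 act at the lysosome, Mrc1, Eps15 and Rhobtb3 in uptake and transport of membrane, Apobec1, Dclre1b and Rb1 on RNA, DNA and the cell cycle, and Cfap97 is named for cilia and flagella. All 7 measured plasma cell markers were bright in every group, at a mean between 10.36 and 11.07 over the list. The 10 fibroblast markers averaged between 3.58 and 3.78 and the 16 macrophage markers between 4.13 and 4.36 on each array, close to the array medians. In bulk RNA, fewer cells with a transcript and less of it per cell cannot be told apart.

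RefSeq promoters were available for 7 of the 10 genes, and they are given for the 3 that carry the letters described next. The core GCGTGAC of textbook PAX5 sites was searched on both strands of the 250 bases before the start of the gene. It occurred in 0 of the 7 promoters and in 1.7777% of all 32851 promoters in the table. The shorter core GTGAC, tried after that result was seen and contained in the longer one, occurred in 3 of the 7 (Lipa, Mrc1 and Atp6v0e2) and in 39.8344% of all promoters. The sequences run 5′ to 3′ on the strand of the gene in the GRCm38.p6 build, and capitals mark GTGAC or its reverse complement. A match describes letters and is not a bound site.
Lipa, chr19:34527475-34527724, minus strand: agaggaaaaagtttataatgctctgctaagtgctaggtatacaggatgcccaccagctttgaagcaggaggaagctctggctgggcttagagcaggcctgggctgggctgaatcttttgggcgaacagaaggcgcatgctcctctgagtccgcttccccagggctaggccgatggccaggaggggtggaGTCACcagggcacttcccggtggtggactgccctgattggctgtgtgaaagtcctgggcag
Mrc1, chr2:14229164-14229413, plus strand: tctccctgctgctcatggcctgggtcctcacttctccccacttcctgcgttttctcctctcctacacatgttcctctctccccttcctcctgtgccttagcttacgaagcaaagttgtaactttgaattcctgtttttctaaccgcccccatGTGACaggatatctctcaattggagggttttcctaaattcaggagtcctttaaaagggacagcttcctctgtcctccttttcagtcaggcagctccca
Atp6v0e2, chr6:48537319-48537568, plus strand: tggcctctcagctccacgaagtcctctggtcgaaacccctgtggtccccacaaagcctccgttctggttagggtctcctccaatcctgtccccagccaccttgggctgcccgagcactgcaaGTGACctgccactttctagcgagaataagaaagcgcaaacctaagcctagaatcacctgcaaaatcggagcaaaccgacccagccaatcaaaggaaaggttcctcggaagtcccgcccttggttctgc
In Lipa the match lies on the reverse strand of the gene, and in Mrc1 and Atp6v0e2 on the forward strand.

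Npc1 and Lipa handle cholesterol in the lysosome. With PAX5-P80R, Npc1 was higher and Lipa lower than with MIR, and with PAX5-WT both lay on the other side. Npc1 encodes the membrane protein that passes free cholesterol out of late endosomes and lysosomes. Its lowest, median and highest levels were 8.90, 9.18 and 9.46 in PAX5-P80R, 8.17, 8.47 and 8.55 in PAX5-WT, and 8.60, 8.83 and 8.86 in MIR. All PAX5-P80R arrays thus lay above all MIR arrays, and all PAX5-WT arrays below them. The difference from MIR was 0.40 ± 0.08 for PAX5-P80R and -0.35 ± 0.07 for PAX5-WT (SE), or 1.32-fold up and 1.27-fold down. Lipa encodes lysosomal acid lipase, which frees cholesterol from its esters. It ran from 6.63 over a median of 7.07 to 7.28 in PAX5-P80R, from 7.28 over 7.63 to 7.67 in PAX5-WT, and from 7.03 over 7.21 to 7.53 in MIR. PAX5-P80R arrays were the low ones and PAX5-WT arrays the high ones, with MIR overlapping both. The MIR arrays of plate 1 ran from 7.03 to 7.21 and those of plate 2, which held all PAX5-P80R arrays, from 7.31 to 7.53. The difference of Lipa from MIR was -0.38 ± 0.09 for PAX5-P80R and 0.29 ± 0.08 for PAX5-WT.

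Atp6v0e2 encodes an e subunit in the membrane sector of the V-ATPase, the pump that acidifies lysosomes. Its lowest, median and highest levels were 6.85, 6.91 and 7.06 in PAX5-P80R, 7.12, 7.36 and 7.46 in PAX5-WT, and 6.95, 7.15 and 7.21 in MIR. The PAX5-P80R arrays lay wholly below the PAX5-WT arrays, and both overlapped MIR. The differences from MIR were -0.24 ± 0.07 for PAX5-P80R and 0.23 ± 0.06 for PAX5-WT.

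Mrc1, Eps15 and Rhobtb3 were all lower with PAX5-P80R and higher with PAX5-WT than with MIR. Mrc1 encodes the mannose receptor, an endocytic receptor best known from macrophages. Its lowest, median and highest levels were 8.27, 8.44 and 8.63 in PAX5-P80R, 8.76, 8.85 and 8.97 in PAX5-WT, and 8.58, 8.63 and 8.69 in MIR. The MIR arrays were tight, the PAX5-P80R arrays reached into them from below, and every PAX5-WT array lay above them. The difference of Mrc1 from MIR was -0.20 ± 0.06 for PAX5-P80R and 0.22 ± 0.05 for PAX5-WT. Of the 16 macrophage markers, at most 2 had a mean more than 1 above the array median in any group. Of these markers, 0 passed for PAX5-P80R over MIR and 1 did for PAX5-WT over MIR (Msr1, a scavenger receptor, 0.27 ± 0.08, named after its value was seen), and their part in the Mrc1 differences was not tested.

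Eps15 encodes an adaptor of clathrin-coated pits. Eps15 stood at a lowest, median and highest level of 9.94, 10.04 and 10.12 in PAX5-P80R, 10.20, 10.36 and 10.44 in PAX5-WT, and 10.05, 10.17 and 10.32 in MIR. PAX5-P80R and PAX5-WT arrays did not overlap, and MIR reached into both. The difference from MIR was -0.19 ± 0.05 for PAX5-P80R and 0.17 ± 0.05 for PAX5-WT. Rhobtb3 encodes a protein that hydrolyses ATP and takes part in transport from late endosomes to the Golgi. It had 8.91, 9.00 and 9.08 as lowest, median and highest level in PAX5-P80R, 9.15, 9.27 and 9.46 in PAX5-WT, and 8.91, 9.14 and 9.27 in MIR. Here too PAX5-P80R lay wholly below PAX5-WT, and the MIR arrays spanned the space between them. Rhobtb3 had the smallest difference of PAX5-WT from MIR among the 10, 0.16 ± 0.05 or 1.12-fold, beside -0.20 ± 0.05 for PAX5-P80R.

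Apobec1, Dclre1b and Rb1 act on nucleic acids or on division. Apobec1 encodes the cytidine deaminase that edits apolipoprotein B mRNA. Its lowest, median and highest levels were 8.19, 8.56 and 8.96 in PAX5-P80R, 8.99, 9.30 and 9.59 in PAX5-WT, and 8.76, 8.86 and 8.98 in MIR. The PAX5-P80R arrays fell into a low set and a set within the MIR range, which is taken up with the isolation batches below. Apobec1 had the largest difference of PAX5-WT from MIR among the 10, 0.41 ± 0.08 or 1.33-fold, and -0.30 ± 0.08 for PAX5-P80R. Rb1 encodes the retinoblastoma protein, which holds E2F factors in check before DNA replication. It stood at 7.36, 7.55 and 7.84 as lowest, median and highest level in PAX5-P80R, 8.11, 8.22 and 8.47 in PAX5-WT, and 7.83, 7.91 and 8.12 in MIR. Rb1 in PAX5-P80R overlapped MIR only through its highest array, and in PAX5-WT only through 1 bright MIR array. The difference was -0.40 ± 0.09 for PAX5-P80R over MIR and 0.34 ± 0.08 for PAX5-WT over MIR.

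Dclre1b encodes a nuclease, also called Apollo, that protects telomere ends and repairs crosslinks. Like Npc1, it was higher with PAX5-P80R and lower with PAX5-WT. It had levels of 9.53, 9.70 and 9.88 in PAX5-P80R, 9.16, 9.23 and 9.36 in PAX5-WT, and 9.34, 9.47 and 9.57 in MIR. PAX5-P80R and PAX5-WT were apart by a clear gap, and each overlapped MIR at one end. The difference from MIR was 0.20 ± 0.06 for PAX5-P80R and -0.23 ± 0.05 for PAX5-WT. Cfap97, whose protein is named for cilia and flagella, had 7.64, 8.01 and 8.33 as lowest, median and highest level in PAX5-P80R, 8.01, 8.28 and 8.71 in PAX5-WT, and 7.90, 8.09 and 8.47 in MIR. All 3 groups overlapped, and within each the isolation batch 2 arrays were the higher ones. After the batch terms the difference of Cfap97 was -0.22 ± 0.06 for PAX5-P80R over MIR and 0.20 ± 0.05 for PAX5-WT over MIR.

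**Figure D1:**
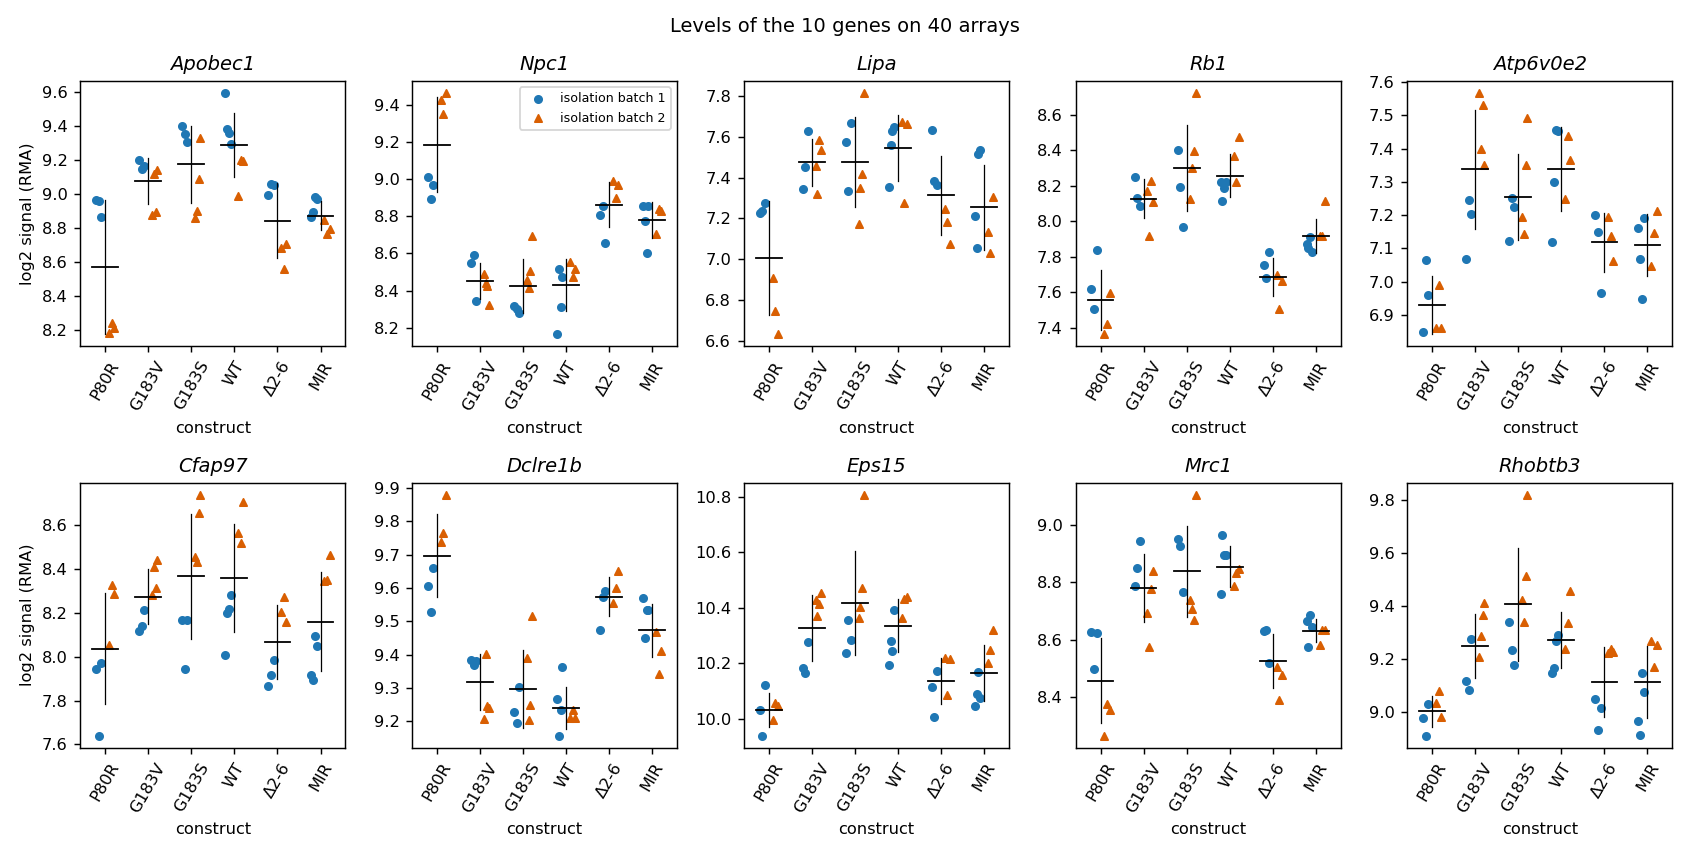
Log2 signals of the 10 genes, 1 panel per gene, with the constructs on the x axis. Points are arrays, round for isolation batch 1 and triangular for isolation batch 2, and the bars show the mean ± SD of 6 or 7 arrays. In 8 panels the PAX5-P80R mean is the lowest and the PAX5-WT mean lies above MIR, and in the Npc1 and Dclre1b panels this is turned round.

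Set directly against PAX5-WT, PAX5-P80R was lower by 0.36 (Rhobtb3) to 0.74 (Rb1) on the log2 scale in 8 genes and higher in Npc1 by 0.75 and in Dclre1b by 0.44. The ranges of the arrays did not overlap in 9 of the 10, all but Cfap97, while 2.17% of all genes had ranges apart. The genes were picked with these 2 constructs on opposite sides of MIR, which favours such a separation. The count is therefore a description. Against MIR, ranges were apart in 1 of the 10 for PAX5-P80R (Npc1; 2.15% of all genes) and in 3 of the 10 for PAX5-WT (Apobec1, Npc1 and Mrc1; 2.24%). By the fit, 4.72% of all genes passed for PAX5-P80R over MIR and 6.43% for PAX5-WT over MIR, and all 10 did so in both by the way they were picked. Of all genes 2.25% were higher and 2.47% lower with PAX5-P80R, and 3.59% were higher and 2.84% lower with PAX5-WT. All of these differences are small, between 1.12-fold and 1.33-fold against MIR.

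**Figure D2:**
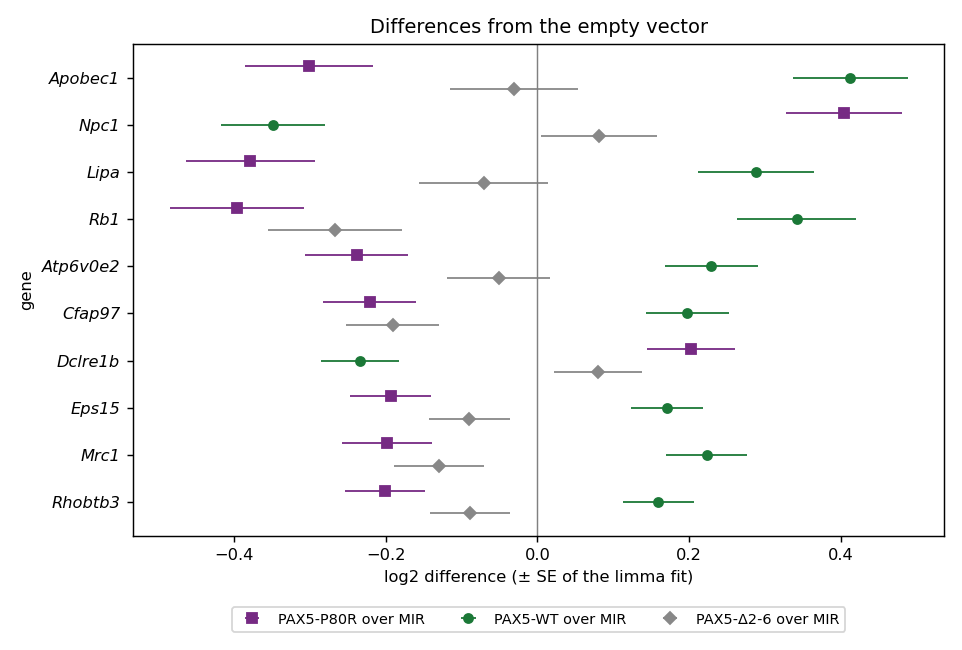
Log2 differences from MIR (x axis) for the 10 genes (y axis), with PAX5-P80R as squares, PAX5-WT as circles and PAX5-Δ2-6 as diamonds; bars are ± SE of the limma fit over 40 arrays. PAX5-P80R and PAX5-WT lie on opposite sides of 0 by the choice of the genes, and the PAX5-Δ2-6 points lie between -0.27 and 0.08.

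The other constructs had no part in choosing the genes, but each comparison with MIR uses the same MIR arrays. Their differences from MIR are therefore set side by side, and calls are not counted. For Npc1 the difference was -0.35 ± 0.07 with PAX5-G183V, -0.37 ± 0.07 with PAX5-G183S and 0.08 ± 0.08 with PAX5-Δ2-6. For Lipa it was 0.24 ± 0.08 with both G183 changes and -0.07 ± 0.09 with PAX5-Δ2-6. The G183 constructs thus sat near the values of PAX5-WT for these lysosomal genes, and PAX5-Δ2-6 was within about 1 SE of 0 in this fit. Rb1 differed by 0.21 ± 0.08 with PAX5-G183V, by 0.38 ± 0.08 with PAX5-G183S and by -0.27 ± 0.09 with PAX5-Δ2-6, the largest difference of PAX5-Δ2-6 among the 10. For Apobec1 the values were 0.25 ± 0.08, 0.35 ± 0.08 and -0.03 ± 0.08 in the same order of constructs. Cfap97 gave 0.06 ± 0.06 with PAX5-G183V, 0.15 ± 0.06 with PAX5-G183S and -0.19 ± 0.06 with PAX5-Δ2-6, so that PAX5-G183V stood closer to MIR than to PAX5-WT. In the same order of constructs, Atp6v0e2 gave 0.22, 0.13 and -0.05, Dclre1b -0.16, -0.18 and 0.08, and Eps15 0.14, 0.23 and -0.09. Mrc1 gave 0.17, 0.22 and -0.13, and Rhobtb3 0.11, 0.27 and -0.09 (SE 0.05 to 0.07 for these genes). In this fit PAX5-Δ2-6 lay on the side of PAX5-P80R from MIR in all 10 genes. Both were set against the same MIR arrays, and both lay on plate 2. The plain PAX5-Δ2-6 means lay on the other side of MIR for Lipa (7.31 beside 7.25), Atp6v0e2 (7.12 beside 7.11) and Rhobtb3 (9.114 beside 9.112). For these genes the sign thus rested on the batch terms. Between the isolation batches 8 of the 10 genes kept their sign. In isolation batch 1 Apobec1 stood at 0.09 ± 0.09 and Lipa at 0.01 ± 0.10. Of the 9 further probe sets, described below, 2 had the sign of the main one. Of all 17097 genes, 0 passed between PAX5-Δ2-6 and MIR in the limma fit, and 1308 had an unadjusted p under 0.05. With 3 series of transduction numbers (1 to 9, 34 to 44 and 45 to 66) in place of the isolation batches, 677 genes passed. The PAX5-Δ2-6 differences were then larger for several genes, at -0.17 for Lipa, -0.43 for Rb1, -0.13 for Apobec1, -0.28 for Cfap97, -0.20 for Mrc1 and 0.11 for Npc1. Under the same setting PAX5-P80R over MIR stood at -0.48 for Lipa, -0.56 for Rb1, -0.40 for Apobec1 and 0.43 for Npc1.

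Comparisons that use no PAX5-P80R, PAX5-WT or MIR array in the contrast allow a test, but not one wholly separate from the gene choice. These set PAX5-G183V and PAX5-G183S against PAX5-Δ2-6, and PAX5-G183V against PAX5-G183S. PAX5-G183V and PAX5-Δ2-6 came from the same series of transduction numbers in each isolation batch, whereas PAX5-G183S and PAX5-Δ2-6 shared a series only in isolation batch 2. The fit covered all 40 arrays, so its spread and its plate and isolation batch terms also rest on the arrays that chose the genes. All PAX5-Δ2-6 arrays lay on plate 2, so the plate term enters the comparisons with PAX5-Δ2-6. The p-values were adjusted over all 17097 genes.

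With PAX5-G183V all 10 genes differed from PAX5-Δ2-6, where 4.98% of all genes passed. Of the 10, 8 were higher and 2 lower, where 3.35% of all genes were higher and 1.64% lower. With PAX5-G183S 9 of the 10 did, all but Atp6v0e2, where 7.09% of all genes passed. Here 7 were higher and 2 lower, beside 4.59% and 2.50% of all genes. Both comparisons share the PAX5-Δ2-6 arrays and are not independent of each other. The median size of the difference over the 10 genes was 0.273 for PAX5-G183V over PAX5-Δ2-6, beside 0.0761 over all genes, and 0.349 for PAX5-G183S over PAX5-Δ2-6, beside 0.0793. A fit with only the 2 groups compared, which leaves out every array that chose the genes, passed 4 of the 10 for PAX5-G183V (Npc1, Rb1, Dclre1b and Mrc1) and 6 of the 10 for PAX5-G183S (Apobec1, Npc1, Rb1, Cfap97, Eps15 and Rhobtb3). For PAX5-G183V the calls of Apobec1, Lipa, Atp6v0e2, Cfap97, Eps15 and Rhobtb3 were thus lost, with adjusted p between 0.0540 and 0.264. With plate 2 alone the counts were 3 (Npc1, Dclre1b and Mrc1) and 8. Without batch terms they were 4, the same genes as in the fit of only the groups compared, and 6. The share of all genes that passed in these alternative fits was not counted, so their counts are a description.

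Npc1 fell with both G183 constructs. Its lowest, median and highest levels were 8.32, 8.44 and 8.59 in PAX5-G183V, 8.28, 8.42 and 8.70 in PAX5-G183S, and 8.66, 8.88 and 8.99 in PAX5-Δ2-6. PAX5-G183V lay wholly below PAX5-Δ2-6, and PAX5-G183S overlapped it through 1 array. Npc1 fell by 0.43 ± 0.08 in PAX5-G183V (limma adjusted p = 0.000225) and by 0.46 ± 0.08 in PAX5-G183S (adjusted p = 7.99e-05), each against PAX5-Δ2-6. Lipa stood at 7.32, 7.46 and 7.63 in PAX5-G183V, 7.17, 7.42 and 7.81 in PAX5-G183S, and 7.08, 7.30 and 7.63 in PAX5-Δ2-6. The ranges overlapped throughout. It rose by 0.31 ± 0.09 in PAX5-G183V (adjusted p = 0.0214) and by 0.32 ± 0.09 in PAX5-G183S (adjusted p = 0.0159). Without batch terms these differences were 0.16 each (adjusted p = 0.499 for PAX5-G183V and 0.483 for PAX5-G183S), and with the mean of the probe sets of Lipa they were 0.20 and 0.07 (adjusted p = 0.215 and 0.729). Both calls were also lost with only the groups compared (adjusted p = 0.0917 and 0.0903), and each in 2 of 40 fits that left out 1 array.

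Atp6v0e2 had 7.07, 7.35 and 7.57 as lowest, median and highest level in PAX5-G183V, 7.12, 7.22 and 7.49 in PAX5-G183S, and 6.97, 7.14 and 7.20 in PAX5-Δ2-6. All groups overlapped. The V-ATPase gene rose by 0.27 ± 0.07 in PAX5-G183V (adjusted p = 0.0125), and its difference of 0.18 ± 0.07 in PAX5-G183S did not pass (adjusted p = 0.101, interval from 0.05 to 0.32 at 95%). The PAX5-G183V call was lost with only the groups compared (adjusted p = 0.264), with plate 2 alone (0.162), with a replicate block (0.0823) and without batch terms (0.0641).

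Rb1 had the largest difference in both comparisons. It lay at 7.92, 8.13 and 8.25 in PAX5-G183V, 7.97, 8.30 and 8.72 in PAX5-G183S, and 7.50, 7.69 and 7.82 in PAX5-Δ2-6. Every array of both G183 groups was above every PAX5-Δ2-6 array. Rb1 rose by 0.47 ± 0.09 in PAX5-G183V, or 1.39-fold (adjusted p = 0.000427), and by 0.65 ± 0.09 in PAX5-G183S, or 1.57-fold (adjusted p = 2.24e-06). With the mean of the probe sets of Rb1, of which 1 is dim, the PAX5-G183V difference was 0.19 (adjusted p = 0.103). The PAX5-G183S call was kept. Ranges were apart in 3 of the 10 genes for PAX5-G183V over PAX5-Δ2-6 (Npc1, Rb1 and Dclre1b), where 2.89% of all genes were apart. They were apart in 3 of the 10 for PAX5-G183S over PAX5-Δ2-6 (Rb1, Eps15 and Mrc1), where 2.64% were.

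The other genes of nucleic acids moved less. Dclre1b had 9.21, 9.37 and 9.40 as lowest, median and highest level in PAX5-G183V, 9.19, 9.25 and 9.51 in PAX5-G183S, and 9.47, 9.58 and 9.65 in PAX5-Δ2-6. Only the top PAX5-G183S array reached the PAX5-Δ2-6 range. It fell by 0.24 ± 0.06 in PAX5-G183V (adjusted p = 0.00875) and by 0.26 ± 0.06 in PAX5-G183S (adjusted p = 0.00299). Apobec1 stood at 8.87, 9.14 and 9.20 in PAX5-G183V, 8.86, 9.30 and 9.40 in PAX5-G183S, and 8.56, 8.85 and 9.06 in PAX5-Δ2-6. PAX5-Δ2-6 was the low group but overlapped both. Apobec1 rose by 0.28 ± 0.08 in PAX5-G183V (adjusted p = 0.0453) and by 0.38 ± 0.08 in PAX5-G183S (adjusted p = 0.00280). The call with PAX5-G183V was lost in 20 of 40 fits that left out 1 array each, with adjusted p between 0.0360 and 0.148.

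The genes of uptake and transport all rose. Mrc1 was at 8.57, 8.79 and 8.94 in PAX5-G183V, 8.67, 8.77 and 9.11 in PAX5-G183S, and 8.39, 8.51 and 8.63 in PAX5-Δ2-6. PAX5-G183S lay wholly above PAX5-Δ2-6 and PAX5-G183V dipped into it with its lowest array. Mrc1 rose by 0.30 ± 0.06 in PAX5-G183V (adjusted p = 0.00101) and by 0.35 ± 0.06 in PAX5-G183S (adjusted p = 7.99e-05). Eps15 was at 10.17, 10.37 and 10.45 in PAX5-G183V, 10.24, 10.36 and 10.81 in PAX5-G183S, and 10.01, 10.14 and 10.22 in PAX5-Δ2-6. Its highest array, in PAX5-G183S, stood apart from the rest of that group. Eps15 rose by 0.23 ± 0.05 in PAX5-G183V (adjusted p = 0.00479) and by 0.32 ± 0.05 in PAX5-G183S (adjusted p = 6.76e-05).

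Rhobtb3 lay at 9.08, 9.27 and 9.41 in PAX5-G183V, 9.18, 9.34 and 9.82 in PAX5-G183S, and 8.93, 9.13 and 9.24 in PAX5-Δ2-6. The groups overlapped at their edges. It rose by 0.20 ± 0.05 in PAX5-G183V (adjusted p = 0.0158) and by 0.36 ± 0.05 in PAX5-G183S (adjusted p = 8.53e-06). With the mean of the probe sets of Rhobtb3 the PAX5-G183V difference was 0.08 (adjusted p = 0.348), while the PAX5-G183S call was kept. Cfap97 lay at 8.12, 8.28 and 8.44 in PAX5-G183V, 7.95, 8.43 and 8.74 in PAX5-G183S, and 7.86, 8.07 and 8.27 in PAX5-Δ2-6. The groups overlapped here as well. Cfap97 rose by 0.25 ± 0.06 in PAX5-G183V (adjusted p = 0.00827) and by 0.35 ± 0.06 in PAX5-G183S (adjusted p = 0.000181). With the mean of the probe sets of Cfap97 these differences were 0.11 and 0.08 (adjusted p = 0.403 and 0.591). Without batch terms both calls were lost as well (adjusted p = 0.411 for PAX5-G183V and 0.163 for PAX5-G183S).

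Within isolation batches, both comparisons kept their signs in all 10 genes. The median size for PAX5-G183V over PAX5-Δ2-6 was 0.216 in isolation batch 1 and 0.343 in isolation batch 2, and for PAX5-G183S over PAX5-Δ2-6 it was 0.308 and 0.388. Fits of isolation batch 1 alone passed 0 of the 10 for PAX5-G183V and 4 for PAX5-G183S, and fits of isolation batch 2 alone 6 and 7. The share of all genes that passed in these fits was not counted, so the counts are a description. For Npc1 the within-batch differences were -0.29 ± 0.09 and -0.54 ± 0.08 for PAX5-G183V, and -0.48 ± 0.09 and -0.44 ± 0.08 for PAX5-G183S. For Rb1 they were 0.45 ± 0.12 and 0.52 ± 0.11 for PAX5-G183V, and 0.48 ± 0.12 and 0.80 ± 0.11 for PAX5-G183S.

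The G183 constructs differ by the residue that replaces glycine at the same position, valine in G183V and serine in G183S. Between them 0 of the 10 genes passed, with a smallest adjusted p of 0.349 (limma), and 0 of 17097 genes did (0%). At an unadjusted p under 0.05 there were 2 of the 10 (Rb1 and Rhobtb3) and 1526 of all genes. The differences of PAX5-G183V over PAX5-G183S ran from -0.17 (Rb1) to 0.08 (Atp6v0e2). For Rb1 the interval at 95% was -0.33 to -0.01, for Rhobtb3 -0.25 to -0.06 and for Lipa -0.16 to 0.15, before any adjustment. A missed threshold does not show that the constructs act alike. A fit with 3 series of transduction numbers in place of the isolation batches passed Rb1 (-0.30, adjusted p = 0.0190) and Rhobtb3 (-0.19, adjusted p = 0.0296), and 783 of all genes.

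**Figure D3:**
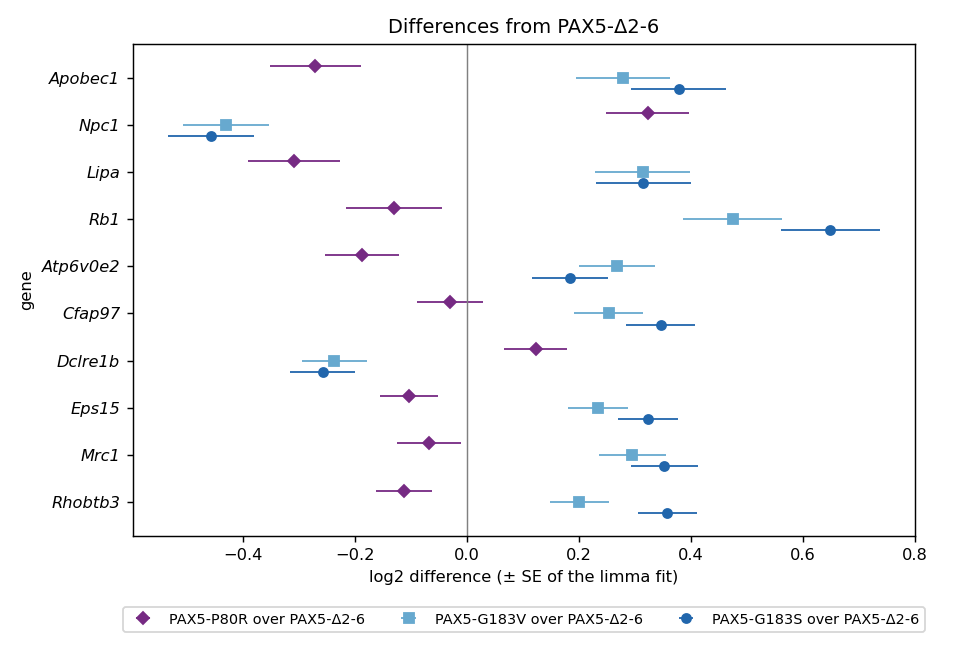
Log2 differences from PAX5-Δ2-6 (x axis) for the 10 genes (y axis), with PAX5-P80R as diamonds, PAX5-G183V as squares and PAX5-G183S as circles; bars are ± SE of the limma fit. Both G183 constructs lie below 0 for Npc1 and Dclre1b and above 0 for the other genes, from -0.46 to 0.65, and PAX5-P80R runs from -0.31 to 0.32.

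PAX5-P80R was also set against PAX5-Δ2-6, with which it shared the plate and the series of transduction numbers. The PAX5-P80R arrays helped to pick the genes, so the values are a description. The largest differences were in the cholesterol genes and Apobec1: 0.32 ± 0.07 for Npc1, -0.31 ± 0.08 for Lipa and -0.27 ± 0.08 for Apobec1. Rb1 differed by -0.13 ± 0.09 and Cfap97 by -0.03 ± 0.06, so for these genes PAX5-P80R and PAX5-Δ2-6 lay close together, both below MIR. Ranges of the arrays overlapped in all 10 genes, and 1.99% of all genes had ranges apart.

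Ordered by mean level, PAX5-P80R was at one end in all 10 genes. For Npc1 the gap between PAX5-P80R and its neighbour PAX5-Δ2-6 exceeded the larger of the 2 SDs, as did the gap between MIR and PAX5-G183V. For Lipa and Cfap97 no gap between neighbours exceeded the larger SD. PAX5-G183V, PAX5-G183S and PAX5-WT were neighbours in every gene, and only for Rb1, between PAX5-WT and PAX5-G183V, was a gap among them larger than the spread. MIR and PAX5-Δ2-6 were neighbours in all 10 genes and differed beyond their spread in Rb1, Dclre1b and Mrc1.

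The differences of PAX5-P80R from MIR were unequal between the isolation batches. The difference of PAX5-P80R from MIR was larger in size in isolation batch 2 than in isolation batch 1 for all 10 genes, at a median of 0.347 against 0.148. Over all genes the medians were 0.106 and 0.0831. Apobec1 averaged 8.22 ± 0.03 in PAX5-P80R and 8.80 ± 0.04 in MIR in isolation batch 2 (SD, n = 3 each). In isolation batch 1 it averaged 8.93 ± 0.05 in PAX5-P80R (n = 3) and 8.93 ± 0.06 in MIR (n = 4), and the arrays overlapped. The low PAX5-P80R arrays for Apobec1 were thus all from isolation batch 2. For Eps15, by contrast, PAX5-P80R averaged 10.03 ± 0.03 in isolation batch 2 and 10.03 ± 0.09 in isolation batch 1, where MIR averaged 10.26 ± 0.06 and 10.09 ± 0.05. Rhobtb3 was alike, at 9.03 ± 0.05 and 8.97 ± 0.06 in PAX5-P80R, against 9.23 ± 0.05 and 9.02 ± 0.10 in MIR. For these genes the MIR mean differed more between the isolation batches than the PAX5-P80R mean did. The remaining groups also averaged higher in isolation batch 2, so that PAX5-P80R changed least of all groups. Eps15 was at 10.41 there and 10.28 in isolation batch 1 in PAX5-WT, and at 10.17 and 10.10 in PAX5-Δ2-6. Rhobtb3 was at 9.34 and 9.22 in PAX5-WT, and at 9.23 and 9.00 in PAX5-Δ2-6. A term for unequal differences between the isolation batches passed in 0.696% of all genes for PAX5-P80R over MIR and in 0.0292% for PAX5-WT over MIR.

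For Apobec1 the difference of PAX5-P80R from MIR was -0.62 ± 0.09 in isolation batch 2 and -0.02 ± 0.09 in isolation batch 1. Npc1 stood 0.63 ± 0.09 above MIR in isolation batch 2 and 0.19 ± 0.08 above it in the other, and Dclre1b 0.37 ± 0.07 and 0.06 ± 0.07 above it. Cfap97 was nearly even, at -0.26 ± 0.08 and -0.21 ± 0.07. Without the isolation batch 2 arrays of PAX5-P80R, an alternative chosen after seeing the data, the differences kept their signs but 0 of the 10 stayed under the adjusted p of 0.05 that picked them; Apobec1 then stood at -0.07 ± 0.09 and Npc1 at 0.23 ± 0.08. PAX5-Δ2-6 over MIR was also larger in size in isolation batch 2, in 9 of the 10 genes, at a median of 0.173 against 0.0607, and it uses the same MIR arrays. For PAX5-WT over MIR, 3 of the 10 genes differed more in isolation batch 2, and the median size was 0.213 there and 0.238 in isolation batch 1.

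**Figure D4:**
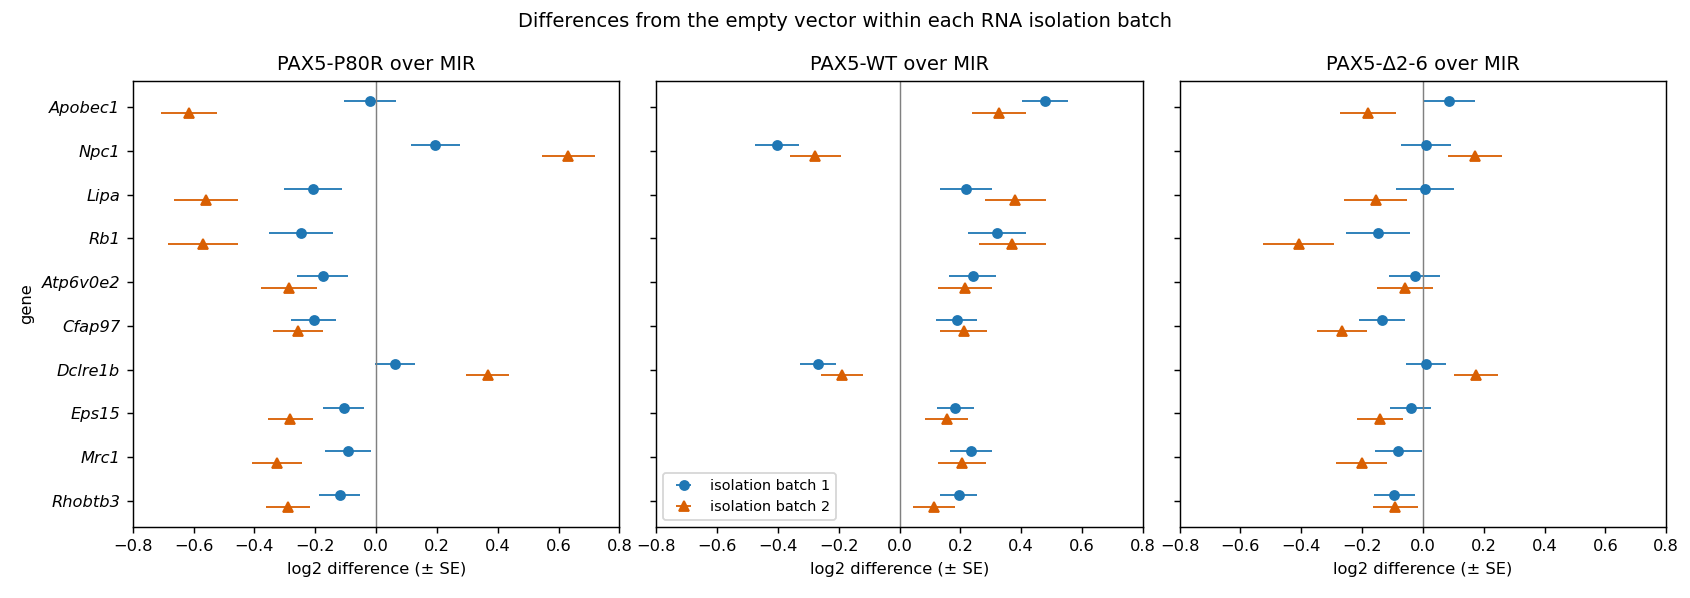
Log2 differences from MIR (x axis) for the 10 genes (y axis), estimated within isolation batch 1 (circles) and isolation batch 2 (triangles), in panels for PAX5-P80R, PAX5-WT and PAX5-Δ2-6; bars are ± SE. The PAX5-P80R differences are larger in isolation batch 2 for all 10 genes, from -0.62 for Apobec1 to 0.63 for Npc1.

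Lipa, Rb1, Cfap97, Eps15 and Rhobtb3 have further probe sets, 9 in all, and the other 5 have 1 probe set each. The values above come from the probe set with the highest mean of each gene. For PAX5-P80R over MIR 6 of the 9 further probe sets had the sign of the main one, and for PAX5-WT over MIR 5 of the 9. In a fit over all 45141 probe sets, 0 of the 9 passed in either of these comparisons (2.55% of all probe sets for PAX5-P80R and 3.85% for PAX5-WT by limma). At an unadjusted p under 0.05 there were 1 and 2. In that larger fit the main probe sets passed in 6 of the 10 genes for PAX5-P80R over MIR, all but Atp6v0e2, Dclre1b, Eps15 and Mrc1, and in 9 of the 10 for PAX5-WT over MIR, all but Rhobtb3. The 5 that did not pass had adjusted p between 0.0505 and 0.0767, so the choice of these genes depends on how many probe sets are tested.

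The Lipa probe set 1423140_PM_at came closest to its main one, at -0.23 ± 0.12 for PAX5-P80R over MIR and 0.26 ± 0.11 for PAX5-WT over MIR. The Lipa probe set 1423141_PM_at gave -0.04 ± 0.12 and 0.28 ± 0.11. For Eps15, the probe set 1419251_PM_at pointed the other way, at 0.11 ± 0.07 for PAX5-P80R and -0.05 ± 0.06 for PAX5-WT, both within 2 SE of 0. It was bright, with a mean of 9.45 over all arrays, beside 10.24 for the main one. The further probe sets of Cfap97 gave 0.09 ± 0.14 and 0.01 ± 0.09 for PAX5-P80R, with 0.09 ± 0.13 and -0.07 ± 0.08 for PAX5-WT. None of these 4 differences for Cfap97 exceeded its SE. The brighter of its further probe sets, 1420989_PM_at, had a mean of 7.98, beside 8.22 for the main one.

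For Rhobtb3, the probe set 1453227_PM_at stood at -0.30 ± 0.10 for PAX5-P80R and at -0.01 ± 0.08 for PAX5-WT, while 1447869_PM_x_at and 1429661_PM_at were within 0.05 of MIR with both constructs. Of these, 1447869_PM_x_at was bright, with a mean of 8.64 over all arrays, beside 9.20 for the main one. The second probe set of Rb1 was dim, with arrays between 3.49 and 4.31, and gave -0.06 ± 0.11 for PAX5-P80R and 0.09 ± 0.10 for PAX5-WT. In the comparisons with PAX5-Δ2-6 too, 0 of the 9 passed for PAX5-G183V (3.07% of all probe sets) and 0 of the 9 for PAX5-G183S (4.36%), with 2 and 1 at an unadjusted p under 0.05. Their signs matched the main probe set in 5 of the 9 for PAX5-G183V and in 4 of the 9 for PAX5-G183S.

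**Figure D5:**
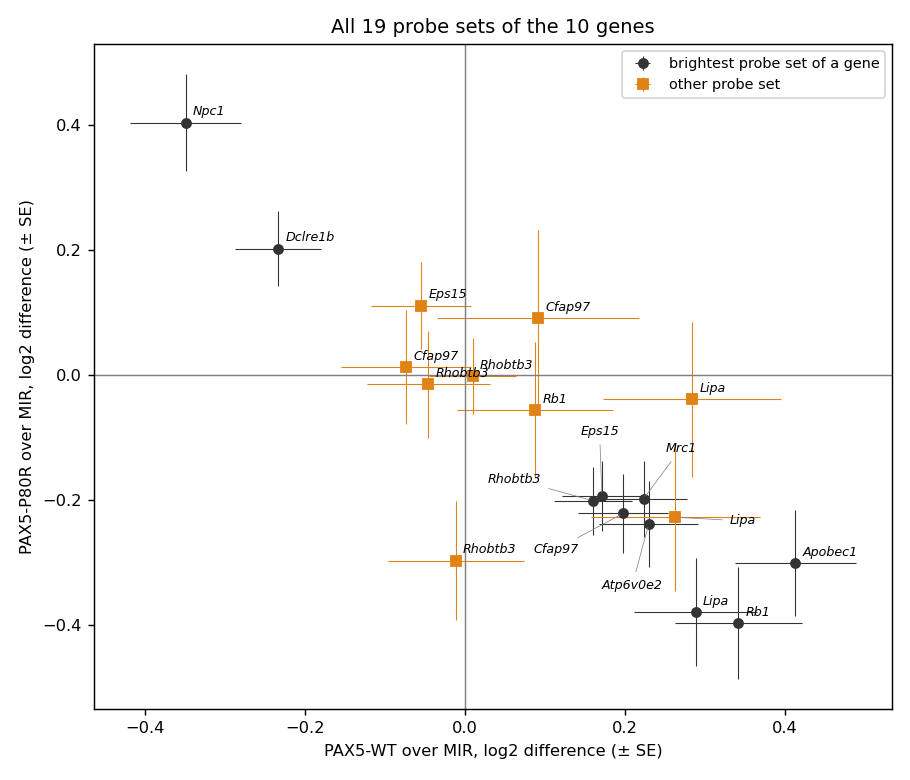
Log2 difference of PAX5-WT over MIR (x axis) and of PAX5-P80R over MIR (y axis) for the 19 probe sets of the 10 genes, with circles for the probe set with the highest mean of each gene and squares for the others; bars are ± SE. The circles lie in the upper left and lower right corners, as picked, and most squares lie within 0.1 of 0 on at least one axis.

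The spread of the genes within groups was also compared array by array. After removal of group, plate and isolation batch effects, 35 of the 45 pairs of genes had a positive correlation over the 40 arrays, with a median of 0.29. The highest was 0.67, between Mrc1 and Rhobtb3, and the lowest -0.50, between Apobec1 and Npc1. All pairs share the same arrays, so these are descriptions. Npc1 and Rb1 had the largest differences of PAX5-P80R over PAX5-WT, and the genes most like them were found by Pearson correlation over 40 arrays after removal of plate and isolation batch effects, with the constructs left in. For Npc1 these were Slc39a14 (0.88), Itgav (0.87) and Mlx (0.84). For Rb1 they were Cacna1s (0.88), Smim13 (0.87) and Gstm5 (0.87).

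Other genes of the same pathways were followed from lists written from textbook knowledge. With the marker lists these hold 214 genes, of which 189 were measured. In the list of lysosomal lipid handling, 22 genes were measured beside Npc1 and Lipa. For PAX5-P80R over MIR, the cathepsin gene Ctsd rose by 0.35 ± 0.05 (limma adjusted p = 2.82e-05), the membrane protein gene Lamp2 fell by 0.21 ± 0.06, and 20 did not pass. For PAX5-WT over MIR, 3 rose and 1 fell: the cathepsin gene Ctsl by 0.40 ± 0.08 (adjusted p = 0.00127), Tfeb, a transcription factor of lysosomal genes, by 0.30 ± 0.08, Psap by 0.17 ± 0.04, and Lamp2, which fell by 0.23 ± 0.05. Lamp2 thus fell with both constructs. The median difference of the list was 0.03 for PAX5-P80R and -0.04 for PAX5-WT, where all genes had medians of 0.00284 and 0.00791.

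Among 20 measured V-ATPase subunits besides Atp6v0e2, 0 rose in either comparison. Atp6v1d fell by 0.26 ± 0.07 with PAX5-P80R (adjusted p = 0.0134). With PAX5-WT 3 fell, Atp6v0a2 by 0.26 ± 0.06 (adjusted p = 0.00629), Atp6v0b by 0.21 ± 0.06 and Atp6v1h by 0.19 ± 0.05, whereas Atp6v0e2 was higher than MIR there. The list medians were -0.03 for PAX5-P80R and -0.05 for PAX5-WT.

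Of 13 deaminases and their cofactors, Rbm47, whose protein helps Apobec1 to edit, rose by 0.46 ± 0.10 with PAX5-P80R (adjusted p = 0.00214), against a lower Apobec1. With PAX5-WT 0 of the 13 passed at the adjusted threshold and 1 did at an unadjusted p under 0.05. Of 25 genes around RB and E2F, 1 rose and 4 fell with PAX5-P80R. Tfdp2, a partner of E2F factors, fell by 0.37 ± 0.06 (adjusted p = 6.99e-05), the cyclin kinase inhibitor gene Cdkn2d by 0.36 ± 0.09, E2f7 by 0.31 ± 0.08 and Cdk2 by 0.17 ± 0.05, and Cdkn1a rose by 0.34 ± 0.10. With PAX5-WT E2f5 rose by 0.21 ± 0.06 and the D cyclin gene Ccnd3 fell by 0.32 ± 0.07, and 23 of the 25 did not pass.

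Of 25 genes of clathrin endocytosis 0 passed with PAX5-P80R, and 4 did at an unadjusted p under 0.05. With PAX5-WT the dynamin gene Dnm1 fell by 0.46 ± 0.09 (adjusted p = 0.000401) and the adaptor gene Ap2b1 by 0.34 ± 0.06 (adjusted p = 0.000234). Of 15 genes of transport from late endosomes to the Golgi, Rhobtb1, a relative of Rhobtb3, rose with both constructs, by 0.24 ± 0.07 with PAX5-P80R (adjusted p = 0.0443) and by 0.47 ± 0.06 with PAX5-WT (adjusted p = 1.34e-06). The sorting nexin gene Snx2 rose by 0.46 ± 0.05 with PAX5-WT (adjusted p = 7.45e-09) and stood at -0.09 ± 0.05 with PAX5-P80R.

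Of 15 genes of telomere protection and crosslink repair, Fanci fell by 0.46 ± 0.09 with PAX5-P80R (adjusted p = 0.000948) and 0 passed with PAX5-WT, with 2 at an unadjusted p under 0.05. Of the 3 relatives of Mrc1, Ly75 rose by 0.27 ± 0.09 with PAX5-WT (adjusted p = 0.0477), and 0 passed with PAX5-P80R, with 1 at an unadjusted p under 0.05. Of the genes in these 8 lists, 2 passed in both comparisons (Lamp2 and Rhobtb1), each with the same sign. Of the 7 plasma cell markers 0 passed with PAX5-P80R (4 at an unadjusted p under 0.05) and 3 fell with PAX5-WT, Ly6c1 by 0.92 ± 0.08, Ell2 by 0.33 ± 0.06 and Xbp1 by 0.14 ± 0.04, and their part in the differences of the 10 genes was not tested. Of 9 B cell markers Pax5 rose with PAX5-P80R by 0.61 ± 0.17, with the doubt about its probes given above, and Ms4a1, the gene of CD20, rose with PAX5-WT by 5.29 ± 0.28. Of 9 T cell markers and 10 fibroblast markers 0 passed in either comparison, and at most 1 per list and comparison had an unadjusted p under 0.05.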

How the data were processed

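The 40 arrays measured total RNA of J558LuM cells with 6 constructs. The authors deposited log2 values from RMA, per the submitters' processing notes, and these were used unchanged; no source used here gives the RMA version. The platform annotation pairs 28898 of 45141 probe sets with 1 gene, 551 with several and 15692 with none. Each of 17097 genes was represented by its probe set of highest mean.

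The labels gave each array's group, plate, isolation batch and transduction number. A model of limma 3.58.1 in R 4.3.3 (lmFit and eBayes) fitted 6 groups, 2 plates and 2 isolation batches over all 40 arrays. In each of 10 comparisons p-values received the Benjamini-Hochberg adjustment across all genes and were called under 0.05. Further fits covered all probe sets and an isolation batch by group term. The plate term rests on the groups on both plates. The median SE over genes was 0.08 to 0.09 in each comparison, and precision is limited by how many arrays there are. The procedure was tested on simulated data.

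The members and the 13 lists were chosen with earlier results of these data known. Named were all members and their probe sets, up to 2 called list genes with the largest change per pathway list, the 3 genes most like each of 2 members, and the nearest gene outside the threshold; other list genes were named after their values were seen.

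Alternatives were other batch terms (none, 3 transduction series, a random block with statmod 1.5.0, a replicate block), plate 2 or 1 isolation batch alone, only the groups compared, the mean of a gene's probe sets, all probe sets fitted, renormalization, leaving out dim genes, array weights, trend with robust settings, and each array left out.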

Additional observations from a re-analysis of the deposited data

Results flagged for a closer look

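Of 60 combinations of gene and group, 2 held an array far from the rest of its group, and chance flags about 1 in 20 groups. Rb1 stood at 8.12 in MIR replicate 7, where the nearest other MIR array was at 7.92. Eps15 stood at 10.81 in PAX5-G183S replicate 7, where the nearest was at 10.47. Without that PAX5-G183S array, 8 of the 10 genes passed for PAX5-G183S over PAX5-Δ2-6, against 9 with it. The call lost was that of Lipa (limma adjusted p = 0.0824), and Eps15 lost its call in 0 of 40 fits that left out 1 array. Lipa was also lost without PAX5-Δ2-6 replicate 6 (adjusted p = 0.0519).

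The difference of PAX5-P80R over MIR was unequal between the isolation batches for Apobec1: isolation batch 2 minus isolation batch 1 was -0.60 ± 0.12 (SE). In the limma fit of an isolation batch by group term over all genes this had an adjusted p of 0.0109, and 0.696% of all genes passed. Apobec1 was picked on these arrays, so the p supports nothing about the choice. Npc1 came next among the 10, at 0.44 ± 0.11 with an adjusted p of 0.0649. For PAX5-WT over MIR 0 of the 10 passed, with a smallest adjusted p of 0.999, and 0.0292% of all genes did. In isolation batch 1 PAX5-P80R and MIR came from different series of transduction numbers, so series and construct cannot be told apart there. In isolation batch 2 the numbers were 48 to 52 for PAX5-P80R and 58 to 60 for MIR. They were thus not mixed between these constructs there either.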

How the results depend on the processing

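Opposite signs of PAX5-P80R and PAX5-WT against MIR held for 10 of the 10 genes in the reported fit and for 9 to 10 under 16 alternatives. The exception was isolation batch 1 alone, where Apobec1 reversed to 0.019 for PAX5-P80R over MIR. The genes were picked for these signs on the same arrays, so the count is a description and lends the choice no support.

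For PAX5-G183V over PAX5-Δ2-6, 10 genes passed. This became 4 without batch terms, 3 with plate 2 alone, 0 with isolation batch 1 alone and 6 with isolation batch 2 alone. It became 4 with only the groups compared, 6 with the mean of a gene's probe sets and 2 with a replicate block. The count was 7 with isolation batch as a random block, 7 with quantile normalization applied again and 9 with all probe sets fitted. For PAX5-G183S over PAX5-Δ2-6, 9 became 4 with isolation batch 1 alone and 7 with isolation batch 2 alone. It became 6 with a replicate block, 6 without batch terms and 6 with only the groups compared. With the mean of a gene's probe sets it became 7, and with plate 2 alone 8. For PAX5-G183V over PAX5-G183S, 0 became 2 with 3 transduction series. Smaller fits hold fewer arrays, and otherwise the cause was not tested. Beyond the reported fit, the share of all genes was counted only with a replicate block, 3 transduction series or all probe sets fitted. Leaving out 1 array gave 10 to 10 genes with opposite signs, 8 to 10 for PAX5-G183V over PAX5-Δ2-6, 8 to 9 for PAX5-G183S over PAX5-Δ2-6 and 0 to 0 between the G183 constructs.

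Same-numbered arrays of different groups deviated together (r over 0.1) in 10 of 96 pairs, so the numbers were not taken as pairs. Over all genes the replicate block changed 807 calls to 173 for PAX5-P80R over MIR, 1078 to 202 for PAX5-P80R over PAX5-WT, 852 to 393 for PAX5-G183V over PAX5-Δ2-6 and 1212 to 462 for PAX5-G183S over PAX5-Δ2-6. With 3 series, 677 genes passed for PAX5-Δ2-6 over MIR and 783 for PAX5-G183V over PAX5-G183S, against 0 in each, and 1714 for PAX5-P80R over MIR, against 807. Renormalizing moved the median over all genes by at most 0.01. With quantile normalization applied again, Apobec1, Lipa and Atp6v0e2 no longer passed for PAX5-G183V over PAX5-Δ2-6 (limma adjusted p between 0.0617 and 0.0793).

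The limits are small differences, 1 cell line and 1 probe set behind each gene. In isolation batch 1 transduction series and construct cannot be told apart for PAX5-P80R over MIR. All PAX5-P80R and PAX5-Δ2-6 arrays lay on plate 2, where every other group had 3. With plate 2 alone the opposite signs held in 10 of the 10 genes. The arrays of that plate helped to pick the genes for these signs, so this does not test the part of the plate.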
